A study of Mus musculus with 12 samples.

Results

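The change from germ cell precursor to spermatid was compared between cells made in culture and cells taken from mice, as an interaction on log2 signal. The interaction is the change from day 6 PGC-like cells (PGCLCs) to spermatid-like cells (SLCs), less the change from E12.5 primordial germ cells (PGCs) to round spermatids (RS). All 12 arrays of the series entered it, and it was described for all 14201 genes that passed a signal filter. An interaction of 1 means that the ratio of late to early signal was 2-fold larger in vitro than in vivo. It does not say on its own whether the early cells, the late cells or both differ, so each result below is given with the signals behind it.

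Each of the 4 groups had 3 arrays of total RNA, which the labels call biological replicates without saying which animals or cultures they came from, so p-values measure the spread between these arrays. The PGCs were sorted from the genital ridges of male BDF1 fetuses at E12.5, and the RS from testes of BDF1 males at 3 weeks of age. The PGCLCs and SLCs are labelled as products of in vitro differentiation, and the sources used here give neither their cell line nor the time in culture of the SLCs. All cells were collected by fluorescence-activated sorting with a gate that is not named. No allele, transgene or agent is named for any group. In such bulk RNA, fewer cells of a type and less RNA per cell cannot be told apart.

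PGCs are the embryonic founders of the germ line. In the male gonad they switch off pluripotency genes, arrest, and later enter meiosis in the testis. Round spermatids are haploid, and they make the acrosome, the sperm tail and the basic proteins that replace histones. During male meiosis the X chromosome is silenced, and many X-linked genes stay repressed in round spermatids. Retrogenes on autosomes, such as Pdha2 and Pgk2, then stand in for X-linked parents.

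Signals are in the intensity units deposited by the authors, which were scaled alike on each array. Values under 30.7, the 25th percentile of the table, were set to it before log2 was taken. This level is called the floor below, and the size of an interaction that touches it depends on it. Called genes had an adjusted p under 0.05 in a limma fit of the 4 group means and at least a 2-fold change. The median SD between replicates was 0.13 on the log2 scale in PGCs, 0.17 in RS, 0.13 in SLCs and 0.30 in PGCLCs. The PGCLC arrays were unlike each other: the correlation across genes was 0.914 between PGCLC replicates 1 and 2, and 0.973 to 0.974 between PGCLC replicate 2 and the 3 PGC arrays. Ddx4, an RNA helicase that marks gonadal germ cells, was at 7054, 7709 and 7219 on the PGC arrays, at 486, 6507 and 3237 on the PGCLC arrays, at 11878, 11052 and 11210.0 on the RS arrays and at 8154, 7098 and 7130.1 on the SLC arrays. It was lowest on PGCLC replicate 1 and intermediate on replicate 3, and PGCLC arrays spanned a wider range than any other group. For that reason the overall results, and those of some lists and genes, are also given with a single PGCLC array as the only PGCLC array. That alternative was chosen after seeing the data.

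Stage markers followed the labels. Prm1, which encodes a protamine that packs sperm DNA, was at 35.4, 60.9 and 48.3 on the PGC arrays, at 47.8, 55.2 and 33.7 on the PGCLC arrays, at 24272, 25863 and 22647 on the RS arrays and at 20459, 20943 and 20286 on the SLC arrays. Every RS and SLC array was far above every early array, and the SLC arrays were all just below the RS arrays. Sox2, a pluripotency factor that germ cells also use, was at 5925, 6083 and 5686 on the PGC arrays and at 9677, 6489.6 and 8573 on the PGCLC arrays, with the floor on every array of RS and SLCs. Summed signals of the sperm tail list were 397570.0 to 422249 in RS and 271324 to 274484 in SLCs, those of the acrosome list 213840.0 to 227345 and 138703 to 140399, and those of the axoneme list 101086 to 103688 and 59012 to 60595. SLCs were below RS in each of these lists with no overlap.

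The direction of the stage change was shared by most genes. Across the 14201 genes, the in vitro and in vivo changes, which share no array, correlated at Pearson's r = 0.878 and Spearman's rho = 0.828. Genes are not independent replicates, and this is a description. The changes had the same sign in 84.6% of genes, and their SD was 2.30 on the log2 scale in vitro against 2.86 in vivo. With PGCLC replicate 1, 2 or 3 as the only PGCLC array, r was 0.842, 0.880 and 0.869. In vitro, 4171 genes rose (29.4%) and 3827 fell (26.9%). In vivo, 4467 rose (31.5%) and 5277 fell (37.2%). Of the 6955 genes called in both, 6742 went the same way and 213 the opposite way.

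The interaction was called higher in 2935 genes (20.7%) and lower in 1573 (11.1%). The called genes were higher in 65.1% of cases as scaled by the authors and in 54.4% after quantile normalization, so the excess of higher calls depends in part on scaling. Of the 2935 higher genes, 2828 (19.9% of all genes) kept their sign when the least favourable array of each group was used, as did 1314 (9.25%) of the 1573 lower genes. The 95% interval of the interaction lay inside -1 to 1, a change alike within 2-fold, in 3690 genes (26%). Among these, 713 rose in both settings (5.02% of all genes) and 850 fell in both (5.99%). Among the higher genes, 1179 fell in vivo with no call in vitro, 1046 fell in both but less in vitro, 384 rose in vitro with no call in vivo, and 194 rose in vitro and fell in vivo. In the lower group, 826 genes rose in both but less in vitro, 374 rose in vivo with no call in vitro, and 203 fell in vitro with no call in vivo. Between the early groups, 1459 genes were higher in PGCLCs (10.3%) and 226 lower (1.59%), and between the late groups 3335 were higher in SLCs (23.5%) and 473 lower (3.33%). The difference between SLCs and RS was larger than that between PGCLCs and PGCs in 2785 of the higher genes (94.9%), but in 795 of the lower genes (50.5%). By calls, SLCs were higher than RS in 2543 of the higher genes, and PGCLCs were lower than PGCs in 40. Among the lower genes PGCLCs were called higher than PGCs in 536, SLCs lower than RS in 271, both in 15, and neither was called in 781.

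**Figure D1:**
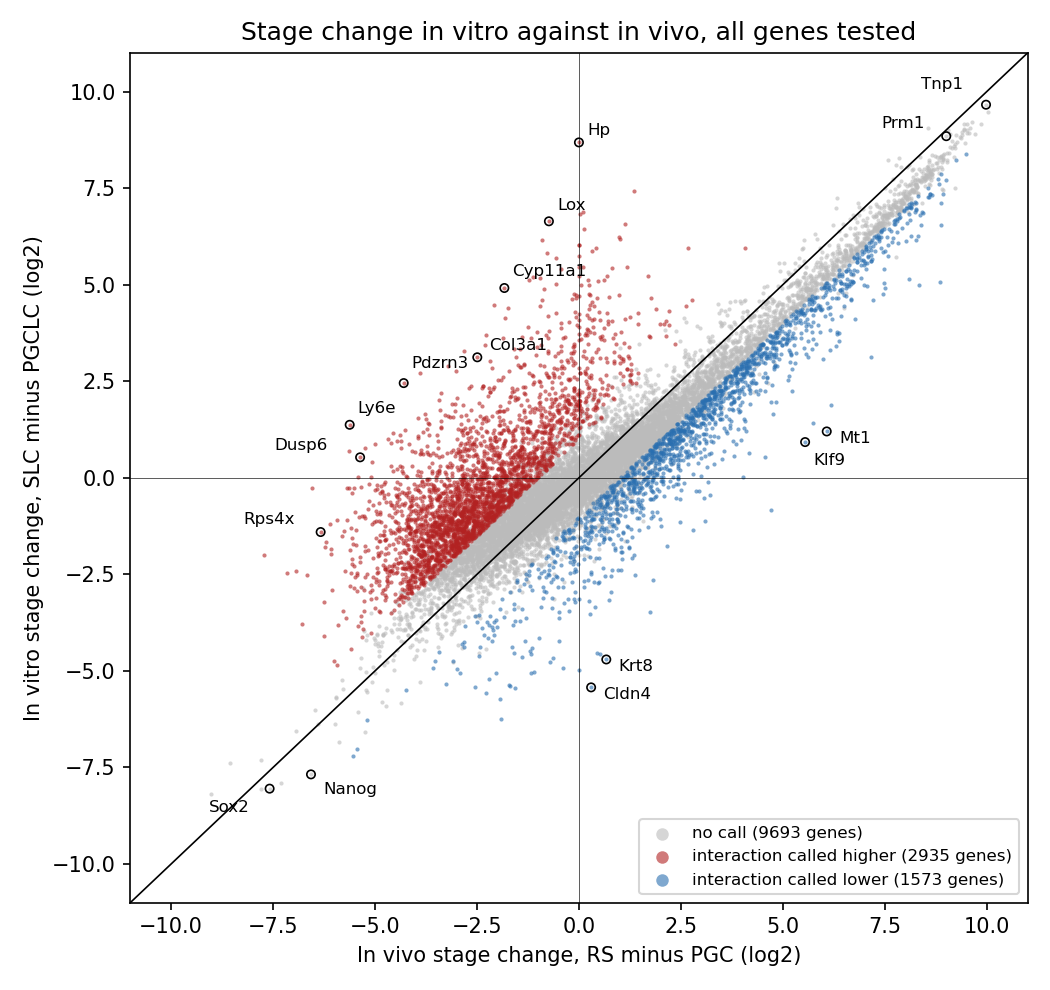
Stage change in vitro (SLC minus PGCLC, log2, vertical axis) against in vivo (RS minus PGC, log2, horizontal axis), 1 point per gene, with the diagonal marking equal changes. Red points are the 2935 genes with a higher interaction and blue points the 1573 with a lower one, and the cloud runs flatter than the diagonal on its left, where genes fell in vivo.

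The gap was widest among genes that fell steeply in vivo. The 525 genes with at least 16-fold less signal in RS than in PGCs had a median change of -4.48 in vivo and -2.32 in vitro. Their median signal was 2361 in PGCs and 93.2 in RS, and in vitro it was 2253 before and 454 after the change. The early cells were thus close, and the late cells were not. The 1470 genes with at least 16-fold more signal in RS had medians of 6.01 in vivo and 5.06 in vitro, and 99.5% of them were called as rising in vitro. Since the same RS and PGC arrays sort the genes and enter the interaction, these medians are given as a description with no test.

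Sperm chromatin and tail genes rose in both settings, and few reached a 2-fold interaction. Of 12 measured sperm chromatin genes, 10 rose in vitro and 10 in vivo, 0 were called for the interaction by limma (1 higher and 6 lower at an unadjusted p under 0.05), and 6 had intervals inside -1 to 1. Their median change was 8.10 in vitro and 8.63 in vivo. All 26 measured sperm tail genes rose in both settings, with medians of 7.49 and 8.30. Tnp1 and Tnp2 encode transition proteins, which replace histones before the protamines do. Tnp1 was at 31.1 on 1 PGCLC array with the others at the floor, at 30417, 33342 and 29579 on the RS arrays and at 25797, 24546 and 24542 on the SLC arrays, with the floor on every array of PGCs. The RS arrays were all above the SLC arrays, by a small margin, and the interaction was -0.32 (SE 0.12, adjusted p = 0.0469), below the 2-fold threshold. Signals this bright lie near the highest on any array, which ran from 26301 to 34380.4. Spata4, a testis gene, was at 39.99 on 1 PGCLC array with the others at the floor, at 31384, 33183 and 31942 on the RS arrays and at 23531, 24155 and 24178 on the SLC arrays, with the floor on every array of PGCs, with an interaction of -0.55. Crisp2, an acrosome and tail protein, had an interaction of -0.34 and Hmgb4, a spermatid chromatin protein, of -0.52. None of the 3 was called, and every RS array was again above every SLC array.

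**Figure D2:**
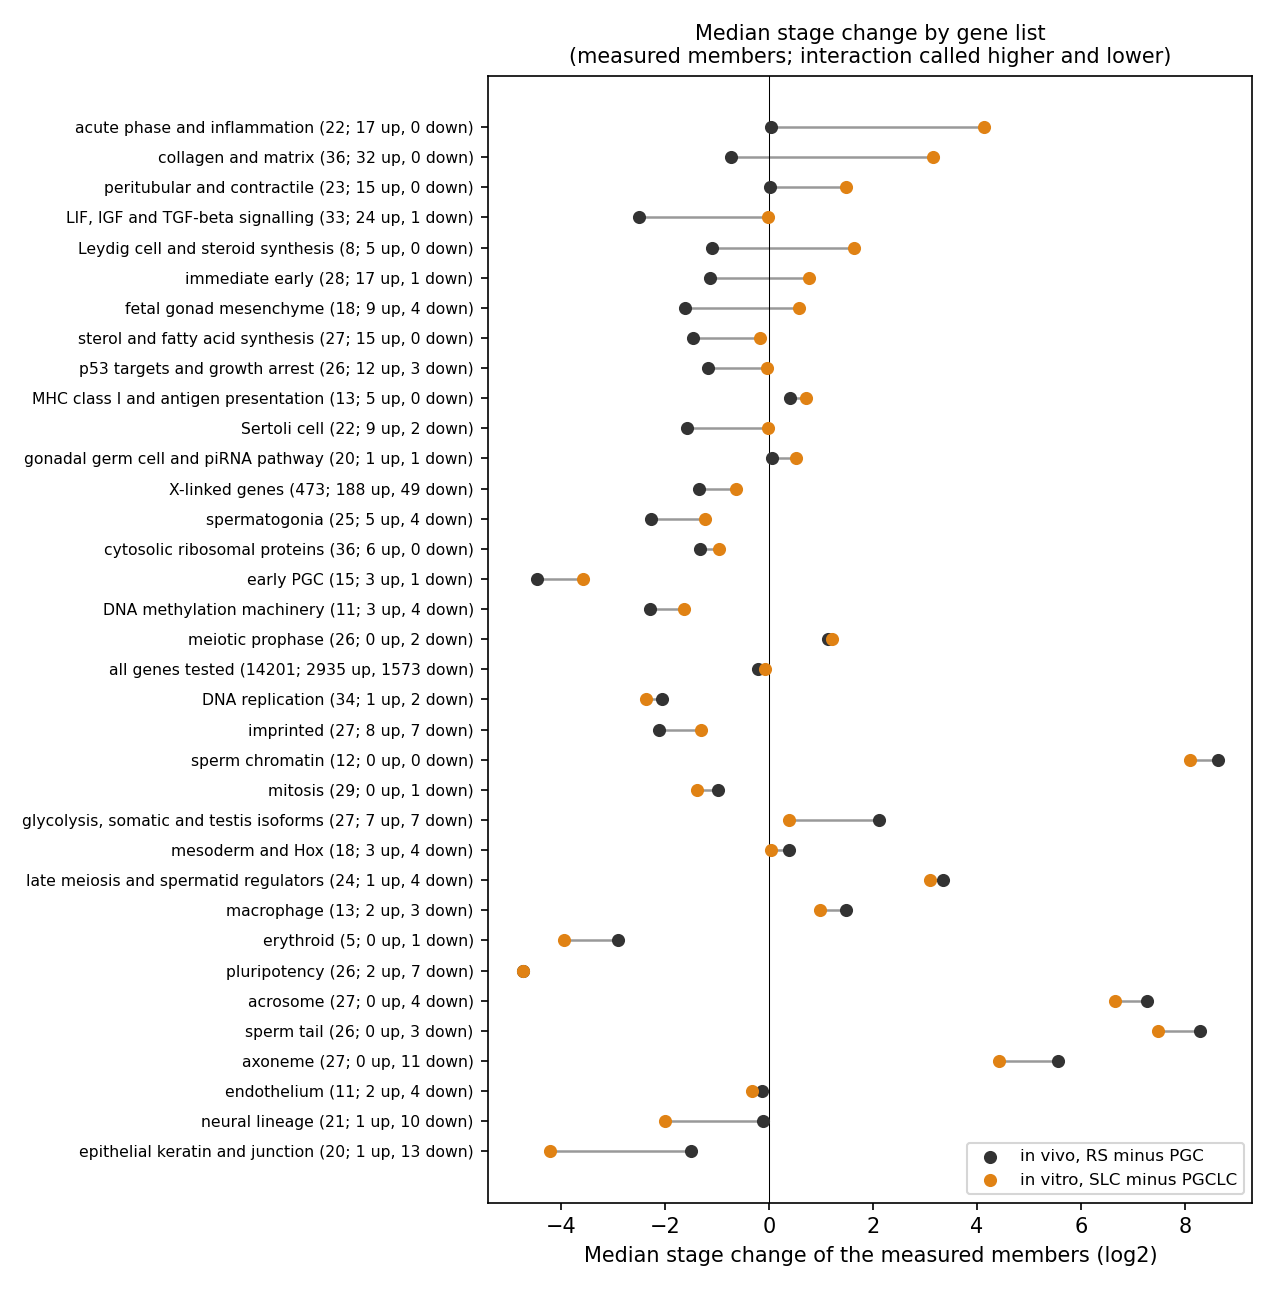
Median stage change on the log2 scale of the measured members of each gene list, in vivo (RS minus PGC, dark points) and in vitro (SLC minus PGCLC, orange points). Numbers beside each name give the measured members and how many had a called higher (up) or lower (down) interaction. The sperm chromatin, tail and acrosome pairs lie close together on the right, and the matrix and acute phase pairs lie far apart.

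Acrosome genes, which serve sperm and egg fusion, also rose in both settings. Of 27 measured, 4 had a lower interaction, a share near the 11.1% of all genes, and the list median was -0.74 against -0.05 over all genes. After quantile normalization 2 were lower and the median was -0.37, and after median centring 9 were lower. With no minimum fold 14 were lower, against 21.8% of all genes. Acr, which encodes the protease acrosin, was at 35.5 on 1 PGCLC array with the others at the floor, at 5131, 4654 and 4426 on the RS arrays and at 2092, 1993 and 1639 on the SLC arrays, with the floor on every array of PGCs. SLC arrays were all below the RS arrays, early signals were near the floor in both settings, and the interaction was -1.39 (SE 0.20, adjusted p = 0.000203). With no floor its adjusted p was 0.151. Izumo1, the sperm protein that binds the egg, was at 97.3 and 47.4 on 2 PGCLC arrays with the other at the floor, at 4276, 4329.7 and 4696 on the RS arrays and at 2370.5, 2629 and 2608 on the SLC arrays, with the floor on every array of PGCs. Its interaction was -1.57 (SE 0.44, adjusted p = 0.0123), and the margin between RS and SLCs was smaller than for Acr. With the floor raised to the table median, the Izumo1 interaction was -0.83, under the 2-fold threshold.

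Axoneme genes, which build the moving core of the sperm tail, rose in both settings and often less in vitro. Of 27 measured, 24 rose in vitro and 23 in vivo, and 11 had a lower interaction, against 11.1% of all genes. The count was 7 after quantile normalization and 6 with the floor at the table median, and the list median was -0.85, or -0.59 after quantile normalization. Foxj1, the master regulator of motile cilia genes, was at 35.98 and 47.1 on 2 PGC arrays with the other at the floor, at 92.7 and 46.3 on 2 PGCLC arrays with the other at the floor, at 2105, 2323 and 2310.1 on the RS arrays and at 1015, 1144 and 1002 on the SLC arrays. Its late signal in SLCs was below that in RS on every array, with an interaction of -1.54 (SE 0.46, adjusted p = 0.0165). Dnah8, a dynein heavy chain of the sperm tail, was at 70.6 and 65.5 on 2 PGC arrays with the other at the floor, at 282, 105 and 259 on the PGCLC arrays, at 8720.1, 9295 and 9261 on the RS arrays and at 5444, 5272 and 5250.2 on the SLC arrays. Every PGCLC array was above every PGC array, and every SLC array below every RS array, for an interaction of -2.69 (SE 0.52, adjusted p = 0.00144). Tekt1, a filament protein of flagella, had an interaction of -1.46 (SE 0.33, adjusted p = 0.0041), which was -0.94 with an adjusted p of 0.0543 after quantile normalization. Hydin, a central-pair protein of the axoneme, had -1.74 (SE 0.35, adjusted p = 0.00188), and -0.74 with an adjusted p of 0.0889 when the middle of its probe sets was used. In the sperm tail list 3 of 26 genes were lower, a share near the 11.1% of all genes. With no minimum fold 16 were lower, against 21.8% of all genes. At an unadjusted p under 0.05, 19 were lower, and the share of all genes at that level was not counted. At the 2-fold threshold 7 were lower without PGCLC replicate 1 and 5 without PGCLC replicate 2. After median centring 8 were lower, and 0 after quantile normalization. Foxj1 was chosen after its values were seen.

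Most pluripotency genes fell in both settings. Of 26 measured, 24 fell in vitro and 20 in vivo, with medians of -4.73 and -4.74, and the median interaction gene by gene was -0.72. The deepest falls with an interval inside -1 to 1 were those of Dppa5a, Sox2, Tet1, Dppa2 and Mest. Dppa5a, an RNA-binding protein of pluripotent cells, was at 20389, 20265 and 22403 on the PGC arrays, at 27029, 19212 and 23364 on the PGCLC arrays, at 124, 85.5 and 79.8 on the RS arrays and at 87.3, 85.3 and 87.7 on the SLC arrays. Its late signals overlapped between RS and SLCs, and its interaction was -0.26 with an interval inside -1 to 1. Tet1, which oxidises methylated DNA, was at 4862, 5264 and 4708 on the PGC arrays, at 4873, 4585 and 4530.2 on the PGCLC arrays, at 40.2, 42.00 and 38.7 on the RS arrays and at 52.1, 62.7 and 37.01 on the SLC arrays, and its interaction of 0.38 was not called either. Mest, an imprinted gene, was at 3787, 3685 and 3429 on the PGC arrays, at 5596, 4997 and 5092 on the PGCLC arrays, at 49.6, 64.7 and 62.5 on the RS arrays and at 98.9, 138 and 73.3 on the SLC arrays, with an interaction of 0.25. For Mest every SLC array was above every RS array, and for Tet1 the late groups overlapped.

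Of the 26 pluripotency genes 7 had a lower interaction, against 11.1% of all genes. Without PGCLC replicate 2, 13 were lower. Higher interactions were called for 2, and for 1 without PGCLC replicate 1, RS replicate 3 or SLC replicate 1. With PGCLC replicate 1, 2 or 3 as the only PGCLC array, the list median was -0.85, -0.15 and -0.82. Pou5f1, the core pluripotency factor Oct4, was at 7088, 6801 and 6865 on the PGC arrays, at 6064, 6286 and 7054 on the PGCLC arrays, at 220.1, 172 and 173 on the RS arrays and at 102, 70.3 and 81.96 on the SLC arrays. Early signals overlapped and every RS array was above every SLC array, for an interaction of -1.06 (SE 0.21, adjusted p = 0.0016). That call sits at the 2-fold threshold: the interaction was -0.995 without PGCLC replicate 3, -0.94 without RS replicate 1 and -0.93 without SLC replicate 2. Nanog, its partner, was at 2988, 3003 and 2769 on the PGC arrays and at 10147, 2985 and 8247 on the PGCLC arrays, with the floor on every array of RS and SLCs, and its interaction of -1.11 was not called (adjusted p = 0.0785). It became -1.65 with an adjusted p of 2.3e-05 without PGCLC replicate 2, the array nearest to PGCs. Tdgf1, a Nodal co-receptor, was at 572, 499 and 602 on the PGC arrays, at 10258, 1012 and 7368 on the PGCLC arrays, at 191, 149.5 and 235 on the RS arrays and at 109, 107 and 79.7 on the SLC arrays, and PGCLC arrays 1 and 3 stood far above the rest. Its interaction was -3.88 (SE 0.91, adjusted p = 0.00496). Lefty1, a Nodal inhibitor, went the other way at 4.24 (SE 0.79, adjusted p = 0.00124). It was at 3611, 3459.8 and 2987 on the PGC arrays, at 428, 2205 and 1083 on the PGCLC arrays, at 116 and 34.1 on 2 RS arrays with the other at the floor and at 272, 318 and 257 on the SLC arrays, so its early signal was lower in PGCLCs and its late signal higher in SLCs.

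Early PGC genes fell in vivo in all 15 measured and in vitro in 14, and 3 had higher interactions (Ifitm3, Ifitm1 and Prdm1), a share near the 20.7% of all genes. Without PGCLC replicate 2, 5 were higher. Alpl was the 1 lower gene, with 3 lower without PGCLC replicate 2 and 0 without PGC replicate 2 or 3, PGCLC replicate 1 or 3, or RS replicate 1 or 2. Ifitm3, an interferon-induced membrane protein that marks early PGCs, was at 7893, 7565 and 7579 on the PGC arrays, at 10572, 6216 and 9156 on the PGCLC arrays, at 424, 299 and 331 on the RS arrays and at 16888, 16004 and 16252 on the SLC arrays. It was brighter on every SLC array than on any other array and lowest in RS, and its interaction was 5.42 (SE 0.24, adjusted p = 2.2e-08). Prdm1, the repressor that specifies PGCs, was at 2251, 2388 and 2164 on the PGC arrays, at 561, 1940.2 and 1021 on the PGCLC arrays, at 83.2, 41.8 and 31.1 on the RS arrays and at 272, 248 and 213 on the SLC arrays, with an interaction of 3.48 (SE 0.59, adjusted p = 0.000625). For Prdm1 every SLC array was above every RS array, though both groups were far under the PGC arrays.

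X-linked genes stood out by chromosome. Of 473 measured, 188 (39.7%) had a higher interaction, against 15.6% on chromosome 11 to 25.3% on chromosome 18 among the autosomes. The median interaction of X-linked genes was 0.57, and 0.47 after quantile normalization. On the X chromosome 266 genes fell in vivo, and 172 of these (64.7%) had a higher interaction, against 2236 of 4995 autosomal genes that fell in vivo (44.8%). The X-linked median minus the autosomal median, on the log2 scale, was -0.24, -0.12 and -0.20 in PGCs and 0.17, -0.14 and 0.22 in PGCLCs. It was -1.22, -1.31 and -1.42 in RS and -0.51, -0.50 and -0.51 in SLCs. SLCs thus lay below both early groups and above RS on every array, with no overlap. Genes of somatic lists were also higher in SLCs than in RS, as given below, and their part in the X-linked result was not tested.

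Single X-linked genes showed the same order. Rps4x, a ribosomal protein gene, was at 28526, 28033 and 28464 on the PGC arrays, at 28259.7, 28229.9 and 29419.6 on the PGCLC arrays, at 331, 361 and 363 on the RS arrays and at 10725, 10726 and 10995 on the SLC arrays. The early groups overlapped, and SLCs lay between them and RS, for an interaction of 4.93 (SE 0.07, adjusted p = 7.86e-12). Pdha1, a subunit of pyruvate dehydrogenase, was at 3690.0, 3525 and 3727 on the PGC arrays, at 5779, 3559.8 and 5232 on the PGCLC arrays, at 288, 101 and 83.3 on the RS arrays and at 1643, 1585 and 1462 on the SLC arrays, with an interaction of 3.16 (SE 0.51, adjusted p = 0.000487). Its autosomal retrogene Pdha2 was at 88.8, 75.7 and 43.3 on the PGC arrays, at 35.5 on 1 PGCLC array with the others at the floor, at 7567, 7807 and 7394 on the RS arrays and at 4664, 4448 and 4359 on the SLC arrays. Pdha2 rose in both settings and its interaction of 0.28 was not called. Pgk1, the X-linked phosphoglycerate kinase, was at 5514, 5535 and 5623 on the PGC arrays, at 16279, 6218 and 13262 on the PGCLC arrays, at 556, 484 and 512 on the RS arrays and at 4934, 4736 and 4550.5 on the SLC arrays, with an interaction of 2.21 (SE 0.37, adjusted p = 0.000576). Pgk2, its autosomal retrogene, was at 59.4 on 1 PGCLC array with the others at the floor, at 17055, 18689.7 and 18369 on the RS arrays and at 12373, 11808 and 11892 on the SLC arrays, with the floor on every array of PGCs, and its interaction of -0.90 was under 2-fold. For both pairs the retrogene came on in SLCs while the X-linked parent stayed well above its RS level. Zbtb33, an X-linked gene for a reader of methylated DNA, had an interaction of 3.17 (SE 0.32, adjusted p = 1.33e-05). Pdha2, Pgk1 and Pgk2 were chosen after their values were seen.

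**Figure D3:**
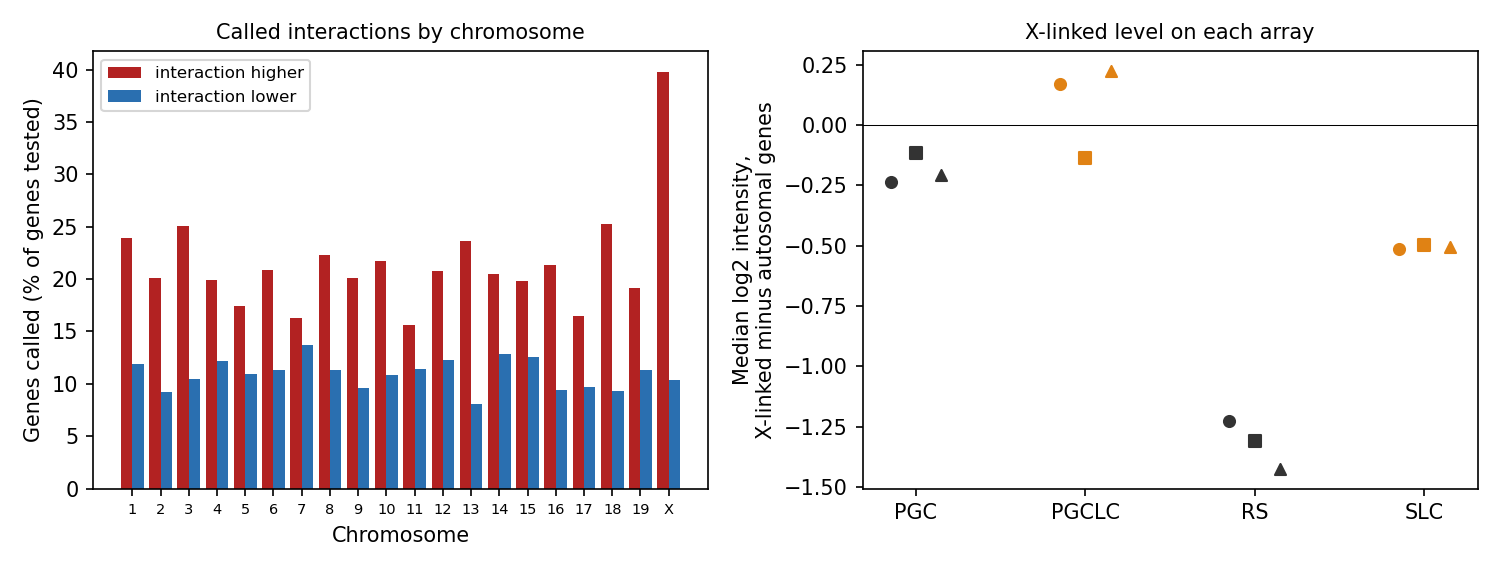
Left, percent of measured genes on each chromosome with a called higher (red) or lower (blue) interaction. Right, the median log2 intensity of X-linked genes minus that of autosomal genes on each array (circle, square and triangle are replicates 1, 2 and 3). The X chromosome reaches 39.7% higher calls, and the SLC arrays at -0.51 to -0.50 lie between the RS arrays and the early groups.

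Extracellular matrix genes rose in vitro, and few did so in vivo. Of 36 measured collagen and matrix genes, 33 rose in vitro and 7 in vivo. A higher interaction was called for 32 (88.9%, against 20.7% of all genes). Their median change was 3.14 in vitro and -0.75 in vivo. Their summed signal was 20588 to 22999 in PGCs, 42488 to 47521 in PGCLCs, 11714 to 12211 in RS and 293541 to 297091 in SLCs. Col3a1, a fibrillar collagen, was at 1762, 1454 and 1744 on the PGC arrays, at 1282, 4246 and 2369 on the PGCLC arrays, at 272, 273 and 338 on the RS arrays and at 21275, 19817 and 20114 on the SLC arrays. It was highest on all SLC arrays and lowest on all RS arrays, with an interaction of 5.61 (SE 0.44, adjusted p = 1.82e-06). Col1a1, the main collagen of connective tissue, was at 164, 85.9 and 109.6 on the PGC arrays, at 326, 397 and 293 on the PGCLC arrays, at 94.4, 69.5 and 165 on the RS arrays and at 8013, 8739.7 and 8282 on the SLC arrays, and its interaction was 4.80 (SE 0.42, adjusted p = 4.28e-06). Lox, the enzyme that crosslinks collagen, was at 71.8, 105 and 82.02 on the PGC arrays, at 38.1, 147 and 102 on the PGCLC arrays, at 89.8, 30.8 and 48.1 on the RS arrays and at 8303, 8348 and 8197 on the SLC arrays, with an interaction of 7.38 (SE 0.66, adjusted p = 4.47e-06). The first 3 groups overlapped for Lox, and SLCs were far above them.

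Igfbp5, Mmp11, Tmem176a, Gpx3 and Col3a1 led the 194 genes that rose in vitro and fell in vivo. The count ran from 182 to 222 when each array was left out in turn, was 125 with the floor at the table median and 25 at a 4-fold threshold. Igfbp5, a binding protein for insulin-like growth factors, was at 459, 434 and 543 on the PGC arrays, at 902, 1569.6 and 1065 on the PGCLC arrays, at 34.2 on 1 RS array with the others at the floor and at 6590.5, 8022 and 7931 on the SLC arrays. It changed by 2.71 in vitro and by -3.90 in vivo, so its interaction was 6.61 (SE 0.27, adjusted p = 1.19e-08), but 0.76 on its second, dimmer probe set. Mmp11, a matrix metalloprotease, was at 389, 394 and 382 on the PGC arrays, at 382, 409.8 and 366 on the PGCLC arrays, at 33.9, 42.7 and 49.96 on the RS arrays and at 2717, 3001 and 2944 on the SLC arrays. Its early signals were the same in both settings within their spread, and the late signals were far apart, for an interaction of 6.13 (SE 0.21, adjusted p = 4.58e-09). Gpx3, the secreted glutathione peroxidase, was at 252, 194 and 306 on the PGC arrays, at 858, 395 and 541 on the PGCLC arrays and at 4285, 3616 and 3710.1 on the SLC arrays, with the floor on every array of RS, with an interaction of 5.77 (SE 0.36, adjusted p = 2.61e-07). Tmem176a, a membrane protein gene, had an interaction of 6.11 (SE 0.27, adjusted p = 2.26e-08).

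Lists of somatic testis markers also had larger shares of higher interactions, but not all rose in vitro as matrix genes did. Of 23 measured peritubular and contractile genes 15 had a higher interaction, as did 5 of 8 Leydig and steroid synthesis genes, 9 of 22 Sertoli genes and 9 of 18 fetal gonad mesenchyme genes, against 20.7% of all genes. Only genes that passed the filter were counted, 8 of 19 listed for Leydig cells, and such counts lean to genes that differ. With no filter the median interaction fell from 2.32 to 1.35 for the Leydig list and from 0.81 to 0.43 for the Sertoli list. It was 2.37 and 2.19 for the peritubular list, and 1.46 both ways for the mesenchyme list. Summed signals of the peritubular list were 22768 to 23357 in PGCs, 40052 to 86168 in PGCLCs, 14889.7 to 15193 in RS and 136717 to 139935 in SLCs. Those of the Leydig list were 4614 to 4988, 3248 to 6756, 4879.8 to 5174 and 15646 to 15858 in the same order. Those of the Sertoli list were 30944 to 32122, 43703 to 66299.8, 5358 to 6416 and 31736 to 32925. Those of the mesenchyme list were 9009 to 9782, 17997 to 19526, 1881 to 2050.1 and 12673 to 13235. SLCs were above RS in every one of these lists with no overlap, and Sertoli and mesenchyme sums were higher still in PGCLCs. Such sums follow the brightest members. On the log2 scale the Sertoli list median was 8.56, 10.43 and 9.30 on the PGCLC arrays and 8.70 to 8.83 in SLCs. The mesenchyme list median was 7.85, 8.70 and 8.80 on the PGCLC arrays and 8.16 to 8.55 in SLCs. By median, PGCLC replicate 1 was thus below the SLC arrays in both lists. In vitro 14 peritubular genes rose and 0 fell, and 5 Leydig genes rose and 1 fell. Of the Sertoli genes 6 rose and 5 fell in vitro, and 12 fell in vivo. Of the mesenchyme genes 6 rose and 7 fell in vitro, and 10 fell in vivo. Sertoli genes included 2 lower members, Krt8 and Krt18. Lower interactions were called for 4 of the 18 mesenchyme genes (22.2%, against 11.1% of all genes). The part of such cells in the interaction was not tested.

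Cyp11a1, the first enzyme of steroid synthesis, was at 101, 80.95 and 159 on the PGC arrays, at 62.2, 289 and 141 on the PGCLC arrays and at 4305, 4002 and 4039 on the SLC arrays, with the floor on every array of RS. Its interaction was 6.74 (SE 0.62, adjusted p = 5.84e-06), and 0.45 on its other probe set. Star, which brings cholesterol into mitochondria, was at 76.4, 68.6 and 117 on the PGC arrays, at 159 and 78.2 on 2 PGCLC arrays with the other at the floor, at 61.03 and 43.8 on 2 RS arrays with the other at the floor and at 2383, 2581 and 2949 on the SLC arrays, with an interaction of 6.14 (SE 0.69, adjusted p = 2.99e-05). Both were bright on all SLC arrays and at or near the floor in RS. Pdgfra, a growth factor receptor of mesenchyme, was at 595, 451 and 416 on the PGC arrays, at 414, 1367 and 798 on the PGCLC arrays, at 85.2 and 37.2 on 2 RS arrays with the other at the floor and at 3798, 3483 and 3352 on the SLC arrays, with an interaction of 5.59 (SE 0.60, adjusted p = 2.05e-05). Inhbb, an inhibin subunit of Sertoli cells, was at 352, 248 and 261 on the PGC arrays, at 311, 799 and 479 on the PGCLC arrays, at 55.7 and 36.2 on 2 RS arrays with the other at the floor and at 1884, 1816 and 1753 on the SLC arrays, with an interaction of 4.73 (SE 0.45, adjusted p = 7.41e-06). Defining Sertoli genes were dimmer: Sox9, the factor that sets Sertoli fate, was at 80.8, 65.2 and 67.9 on the PGC arrays, at 87.3, 163 and 139 on the PGCLC arrays, at 96.5, 66.3 and 80.2 on the RS arrays and at 173, 185 and 219 on the SLC arrays, and its interaction of 0.43 was not called. Amh and Fshr, further Sertoli markers, did not pass the filter, and Insl3 and Lhcgr, which define Leydig cells, had no probe set of their own in the annotation used. Wt1, a gonad somatic factor, was at 347, 272 and 382 on the PGC arrays, at 99.96, 906 and 298 on the PGCLC arrays, at 77.05, 111 and 36.3 on the RS arrays and at 598, 489 and 503 on the SLC arrays, with an interaction of 3.10 (SE 0.90, adjusted p = 0.0146). For Wt1 the PGCLC arrays ran from below the PGC arrays to above the SLC arrays. Inhbb, Sox9 and Wt1 were chosen after their values were seen.

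Acute phase and inflammation genes included the largest interaction of the named genes. Of 22 measured acute phase and inflammation genes, 17 had a higher interaction (77.3%, against 20.7% of all genes). The list median was 3.97. When the filter asked for 6 arrays, 5 were higher. With any 1 of the 3 SLC arrays left out the count was 10, since genes bright only in SLCs then have too few arrays to pass the filter, and with no filter it was again 17. Genes bright in 1 group passed the filter through that group, so such counts over measured members lean to genes that differ. Hp, which encodes the plasma protein haptoglobin, was at 13069, 12176 and 12669 on the SLC arrays, with the floor on every array of PGCs, PGCLCs and RS. Its interaction was 8.68 (SE 0.21, adjusted p = 4.06e-10). Il6, a cytokine, was at 39.7 on 1 RS array with the others at the floor and at 2764, 2507 and 2678 on the SLC arrays, with the floor on every array of PGCs and PGCLCs, with an interaction of 6.31 (SE 0.25, adjusted p = 1.19e-08). Both were bright in SLCs, with all other arrays at or near the floor. Ereg, an epidermal growth factor family ligand, was at 30.8 and 32.4 on 2 PGC arrays with the other at the floor, at 34.9 on 1 PGCLC array with the others at the floor, at 34.7 on 1 RS array with the others at the floor and at 4046, 3314 and 3581 on the SLC arrays, with an interaction of 6.80 (SE 0.24, adjusted p = 6.1e-09). Ctla2a, a protease inhibitor, was at 76.5, 89.02 and 72.6 on the PGC arrays, at 193, 103 and 138 on the PGCLC arrays, at 94.97, 56.7 and 111 on the RS arrays and at 17162, 16544 and 15702 on the SLC arrays, with an interaction of 6.79 (SE 0.37, adjusted p = 9.85e-08). Gda, a guanine deaminase, had an interaction of 7.07 (SE 0.48, adjusted p = 4.88e-07). Of 13 measured macrophage genes, 2 were higher (Lyz1 and Lyz2, 1 without PGC replicate 1 or 3, PGCLC replicate 3, or SLC replicate 1 or 3) and 3 lower, 6 without PGCLC replicate 2. These shares, 15.4% and 23.1%, stand beside 20.7% and 11.1% of all genes. Summed signals of the macrophage list were 645 to 759 in PGCs, 1223 to 2811 in PGCLCs, 14896 to 16347 in RS and 11861 to 12396 in SLCs. The list median, on the log2 scale, was 5.12 to 5.57 in PGCs and 6.44 to 6.58 in PGCLCs. It was 6.88 to 7.42 in RS and 7.69 to 7.74 in SLCs, so the sums follow the brightest members. Csf1r, the receptor that defines macrophages, was at 90.7, 84.8 and 54.2 on the PGC arrays, at 796, 279.7 and 601 on the PGCLC arrays, at 246, 199.7 and 179.8 on the RS arrays and at 200.4, 211 and 195 on the SLC arrays, and its interaction was -2.81 (SE 0.48, adjusted p = 0.00067). Its late signals overlapped, and PGCLC arrays were the highest.

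**Figure D4:**
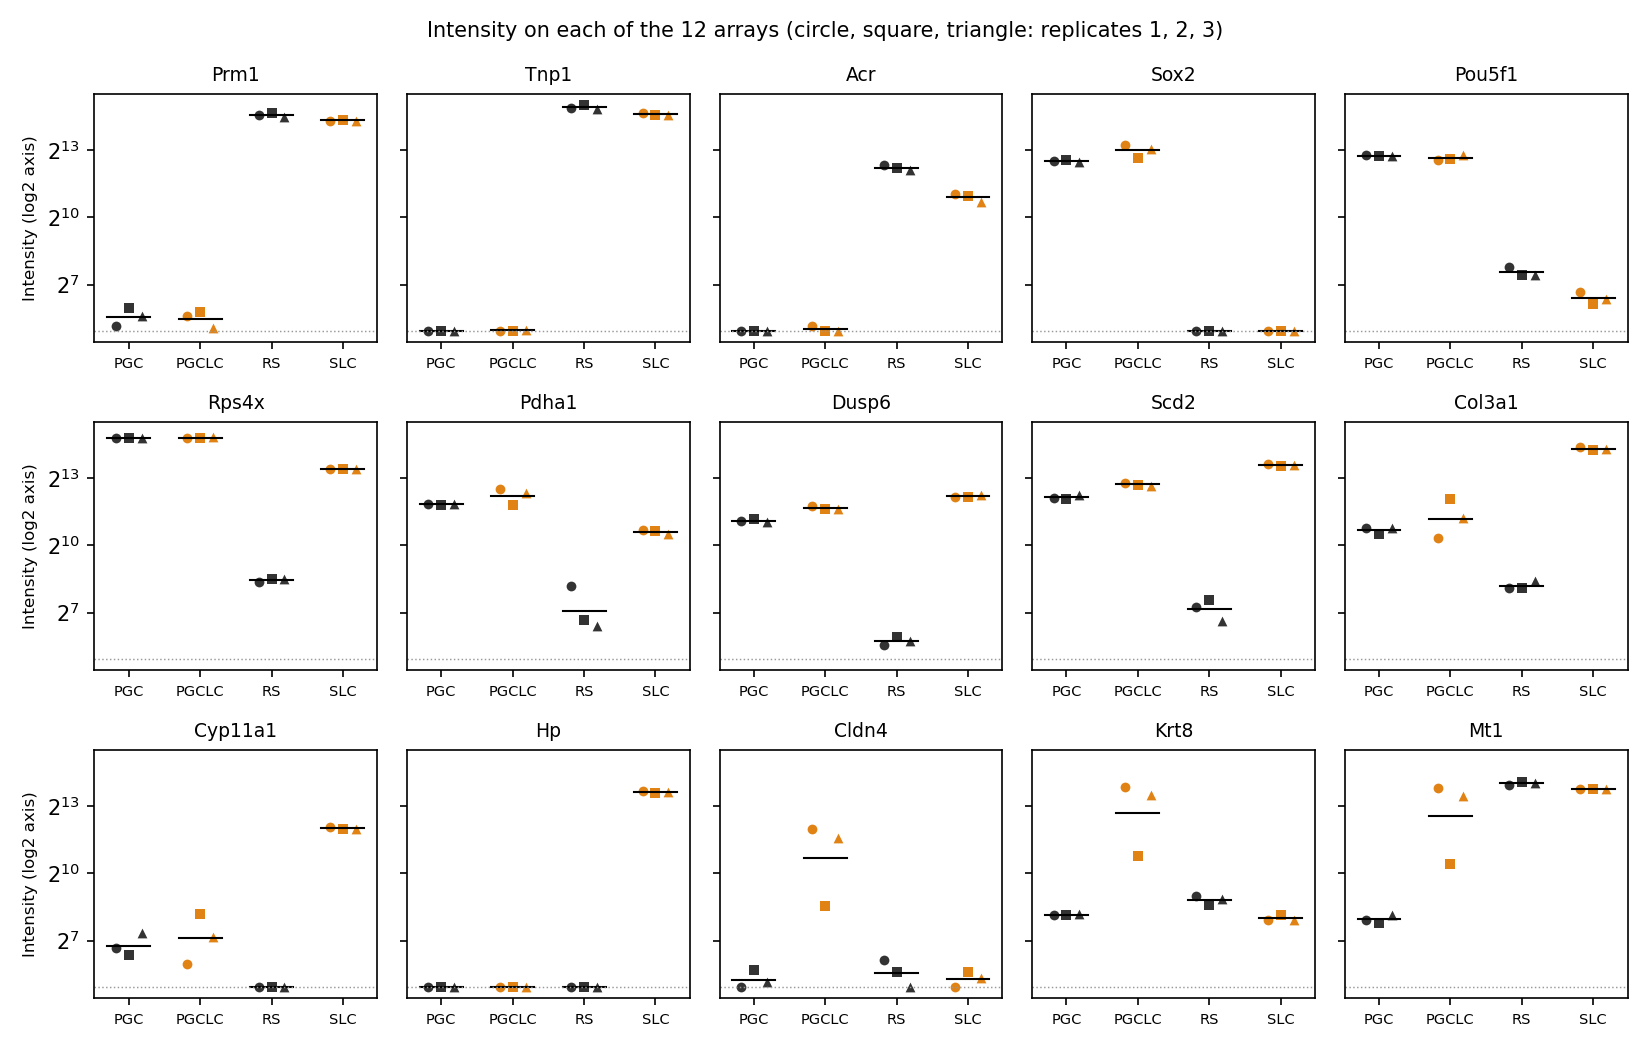
Intensity of 15 genes on each of the 12 arrays, on a log2 axis, with circle, square and triangle for replicates 1, 2 and 3, a bar at the mean of the log2 values and a dotted line at the floor of 30.7. Prm1 and Tnp1 are bright late in both settings, with the SLC arrays just below the RS arrays. Rps4x, Dusp6, Scd2 and Col3a1 are low in RS alone, and Cldn4, Krt8 and Mt1 differ among the PGCLC arrays.

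Immediate early and growth arrest genes fell in vivo more than in vitro. Of 28 measured immediate early genes, 15 fell in vivo and 1 in vitro. A higher interaction was called for 17 (60.7%, against 20.7% of all genes). The list medians were 0.76 in vitro and -1.14 in vivo. The cells from culture were also higher at each stage. PGCLCs were called higher than PGCs in 21 of the 28 genes, against 10.3% of all genes. SLCs were called higher than RS in 25, against 23.5% of all genes, and 0 were called lower at either stage. Fos, a subunit of the AP-1 factor, was at 2482, 2232 and 3026 on the PGC arrays, at 14128, 9343 and 12741 on the PGCLC arrays, at 716, 686 and 601 on the RS arrays and at 13361, 12025 and 12058 on the SLC arrays. Every in vitro array was above every array from mice, and the stage change of 0.07 in vitro and -1.94 in vivo gave an interaction of 2.01 (SE 0.21, adjusted p = 1.93e-05). Dusp6, a phosphatase that restrains ERK signalling, was at 2147, 2323 and 2100.2 on the PGC arrays, at 3408, 3104 and 3165 on the PGCLC arrays, at 47.3, 59.2 and 53.4 on the RS arrays and at 4575, 4511 and 4884 on the SLC arrays. RS stood apart as the one low group, with an interaction of 5.90 (SE 0.14, adjusted p = 4.07e-10). Klf9 was the one lower gene of the list and is described with the PGCLC genes below. The labels give room temperature for the sorting of every group, and the part of sorting in these results was not tested.

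Among 26 measured p53 target and growth arrest genes, 12 were higher (46.2%) and 3 lower (11.5%), against 20.7% and 11.1% of all genes. PGCLCs were called higher than PGCs in 14 of the 26, against 10.3% of all genes. SLCs were called higher than RS in 18, against 23.5% of all genes, and 0 were called lower at either stage. Cdkn1a, the cell cycle inhibitor p21, was at 434, 426 and 448 on the PGC arrays, at 2004, 611 and 1498 on the PGCLC arrays, at 88.8, 81.6 and 71.7 on the RS arrays and at 4529.9, 4588 and 4903 on the SLC arrays. Its change was 1.93 in vitro and -2.44 in vivo on the log2 scale, for an interaction of 4.37 (SE 0.46, adjusted p = 1.74e-05). Pmaip1, the cell death gene Noxa, was at 5801, 5758 and 5424 on the PGC arrays, at 2569.8, 4483 and 3191 on the PGCLC arrays, at 67.1 on 1 RS array with the others at the floor and at 596, 567 and 633 on the SLC arrays. It fell in both settings, but to or near the floor in RS alone, with an interaction of 4.67 (SE 0.39, adjusted p = 2.91e-06). Of 13 measured MHC class I and antigen presentation genes 5 were higher (38.5%, against 20.7% of all genes). B2m, the invariant chain of MHC class I, was at 403, 464 and 392 on the PGC arrays, at 3356, 1097 and 2266 on the PGCLC arrays, at 360.4, 425 and 438 on the RS arrays and at 12157, 11796 and 11966 on the SLC arrays, with an interaction of 2.60 (SE 0.42, adjusted p = 0.000464). Psme1, a proteasome activator subunit, was at 4656, 4820.4 and 4787 on the PGC arrays, at 3785, 4101 and 3918 on the PGCLC arrays, at 167, 204 and 204 on the RS arrays and at 1461, 1664 and 1530.5 on the SLC arrays, with an interaction of 3.30 (SE 0.14, adjusted p = 1.56e-08). B2m was highest in SLCs, whereas Psme1 was highest in both early groups.

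Growth factor signalling genes fell in vivo more often than in vitro. Of 33 measured genes of LIF, IGF and TGF-beta signalling, 24 fell in vivo and 10 in vitro. A higher interaction was called for 24 (72.7%, against 20.7% of all genes), and the list median was 2.33. Fgfr1, a fibroblast growth factor receptor, was at 843, 953 and 947 on the PGC arrays, at 996, 990.4 and 904 on the PGCLC arrays, at 56.9 on 1 RS array with the others at the floor and at 1703, 1865 and 1858 on the SLC arrays, with an interaction of 5.51 (SE 0.29, adjusted p = 7.79e-08). Id3, a target of BMP signalling, was at 1825, 1654 and 1729.5 on the PGC arrays, at 2351, 2267 and 2352 on the PGCLC arrays, at 94.03, 73.4 and 81.7 on the RS arrays and at 5132, 4966 and 4930.1 on the SLC arrays, with an interaction of 5.50 (SE 0.14, adjusted p = 6.3e-10). Both were low in RS alone, with no overlap with another group. Inhba, which encodes the activin A subunit, was at 125, 126 and 82.04 on the PGC arrays, at 216 and 59.8 on 2 PGCLC arrays with the other at the floor, at 86.98 and 94.9 on 2 RS arrays with the other at the floor and at 3817, 4212 and 4511 on the SLC arrays, with an interaction of 6.61 (SE 0.86, adjusted p = 9.42e-05). Igfbp2 was the only lower gene of the list, and the count of lower genes was 2 without PGCLC replicate 2. Id3 was chosen after its values were seen.

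Other large higher interactions came from genes already bright in both early groups. Ly6e, a surface protein gene, was at 3054, 2939 and 2687 on the PGC arrays, at 858, 2269 and 1271 on the PGCLC arrays, at 83.99 and 78.4 on 2 RS arrays with the other at the floor and at 3969, 3222 and 3357 on the SLC arrays, with an interaction of 6.99 (SE 0.54, adjusted p = 1.52e-06) and of 0.41 on its other probe set. Pdzrn3, a ubiquitin ligase, was at 715, 659 and 645 on the PGC arrays, at 626, 643 and 534 on the PGCLC arrays, at 42.5 on 1 RS array with the others at the floor and at 3326, 3290.3 and 3220.0 on the SLC arrays, with an interaction of 6.75 (SE 0.21, adjusted p = 2.1e-09). For Pdzrn3 the early groups were close and only the late signals were far apart, while Ly6e was lower in PGCLCs than in PGCs on every array. Among imprinted genes, 8 of 27 were higher (29.6%) and 7 lower (25.9%), against 20.7% and 11.1% of all genes. Their median interaction was -0.27, and -0.13 with PGCLC replicate 2 as the only PGCLC array. Ndn, a paternally expressed gene, was at 1541, 1659.9 and 1500.4 on the PGC arrays, at 1530.2, 1943 and 1783 on the PGCLC arrays, at 77.1, 55.00 and 53.8 on the RS arrays and at 1320.1, 1261 and 1359.8 on the SLC arrays, with an interaction of 4.27 (SE 0.21, adjusted p = 4.48e-08). Plagl1, an imprinted zinc finger gene, had an interaction of 5.08 (SE 0.44, adjusted p = 3.75e-06), but 0.58 on its other probe set.

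Genes of sterol and fatty acid synthesis fell in vivo and seldom in vitro. Of 27 measured, 18 fell in vivo and 3 in vitro, and 15 (55.6%) had a higher interaction, against 20.7% of all genes. The list medians were -0.18 in vitro and -1.46 in vivo. Scd2, a fatty acid desaturase, was at 4489, 4329 and 4798 on the PGC arrays, at 7114, 6636 and 6494 on the PGCLC arrays, at 152, 187 and 98.8 on the RS arrays and at 12853, 11914 and 12281 on the SLC arrays, with an interaction of 5.88 (SE 0.25, adjusted p = 1.7e-08). Scd1, its relative, was at 88.9, 143 and 51.1 on the PGC arrays, at 1004, 177 and 606 on the PGCLC arrays, at 64.1 and 56.8 on 2 RS arrays with the other at the floor and at 13296, 14750.1 and 13950.1 on the SLC arrays, with an interaction of 5.73 (SE 0.79, adjusted p = 0.000143). Scd2 was bright in every group but RS, and Scd1 was bright in SLCs. Hmgcs1, which makes HMG-CoA for cholesterol synthesis, was at 8509, 8041 and 8640.1 on the PGC arrays, at 7205, 7947 and 7089 on the PGCLC arrays, at 1428, 1212 and 1443 on the RS arrays and at 5601, 5423 and 5511 on the SLC arrays, with an interaction of 2.20 (SE 0.11, adjusted p = 5.25e-08). Hsd17b7, a later enzyme of the pathway, was at 445, 477 and 532 on the PGC arrays, at 387, 499.7 and 381 on the PGCLC arrays, at 67.1, 63.99 and 80.4 on the RS arrays and at 941, 1044 and 1077 on the SLC arrays, with an interaction of 4.07 (SE 0.22, adjusted p = 8.89e-08). Msmo1, a sterol demethylating oxidase, was at 2433, 2537 and 2266 on the PGC arrays, at 2206, 1881 and 2013 on the PGCLC arrays, at 60.2, 59.1 and 105 on the RS arrays and at 2724, 2688 and 2670.3 on the SLC arrays, with an interaction of 5.47 (SE 0.26, adjusted p = 3.6e-08). RS were below SLCs on every array in all 5 genes. Of 2 probe sets for Msmo1, 1 had an interaction of this sign, and of 5 for Hmgcs1, 4 did. Hmgcs1, Hsd17b7 and Msmo1 were chosen after their values were seen.

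The promoters of Hmgcs1, Hsd17b7 and Msmo1 are shown because the sterol genes moved together and most of their promoters held 1 short element. Each line gives the 250 bases before the start site, 5′ to 3′ on the gene's strand, from RefSeq on GRCm38.p6. Capitals mark CCAAT, or ATTGG on the other strand, and in Hmgcs1 also the sterol regulatory element TCACCCCAC. The windows are chr13:119690101-119690350 on the plus strand, chr1:169969206-169969455 on the minus strand and chr8:64733579-64733828 on the minus strand.
Hmgcs1: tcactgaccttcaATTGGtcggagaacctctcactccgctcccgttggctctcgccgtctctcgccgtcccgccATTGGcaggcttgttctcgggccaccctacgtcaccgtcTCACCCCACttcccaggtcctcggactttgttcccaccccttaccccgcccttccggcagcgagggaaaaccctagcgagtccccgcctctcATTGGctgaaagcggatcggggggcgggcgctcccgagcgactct
Hsd17b7: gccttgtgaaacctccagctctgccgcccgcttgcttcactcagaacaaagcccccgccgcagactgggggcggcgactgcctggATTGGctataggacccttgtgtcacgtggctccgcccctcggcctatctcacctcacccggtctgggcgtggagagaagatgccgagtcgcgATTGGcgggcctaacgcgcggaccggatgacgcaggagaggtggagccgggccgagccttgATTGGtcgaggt
Msmo1: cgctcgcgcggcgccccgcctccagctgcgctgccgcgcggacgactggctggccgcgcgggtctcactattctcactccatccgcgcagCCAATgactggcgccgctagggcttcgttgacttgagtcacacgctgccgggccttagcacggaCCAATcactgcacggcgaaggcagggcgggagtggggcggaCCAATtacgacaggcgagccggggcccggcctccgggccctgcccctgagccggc
Each promoter holds 3 CCAAT matches, and Hmgcs1 holds the sterol element 137 bases before its start. CCAAT was found on either strand in 17 of 21 sterol list promoters (81.0%), in 40.1% of 11436 genes tested that had a promoter entry, and in 38.1% of 2360 genes with a higher interaction. Among 6 other lists the share ran from 25% in sperm chromatin to 50% in immediate early genes. The sterol element TCACNCCAC was found in 1 of the 21 and in 1.22% of the genes tested. TGACTCA, the AP-1 element, was found in 4.36% of the higher genes and 4.23% of those tested, and the cAMP element TGACGTCA in 2.67% and 2.88%. Motifs of serum response factor and YY1 were searched as well. All 6 motifs were searched on both strands. A match is a description of letters, not a binding site.

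Lower interactions of large size came from genes high in PGCLCs. Of 20 measured epithelial keratin and junction genes, 18 fell in vitro and 11 in vivo. A lower interaction was called for 13 (65%, against 11.1% of all genes). Of 21 neural genes 17 fell in vitro and 6 in vivo, and 10 were lower (47.6%). The neural count was 4 without PGCLC replicate 3, and 6 without PGCLC replicate 1, SLC replicate 1 or SLC replicate 2. Genes bright only in PGCLCs passed the filter through that group, so these counts lean to lower genes. When the filter asked for 6 arrays, 8 epithelial and 3 neural genes were lower. Summed signals of the epithelial list were 27249.5 to 28382 in PGCs, 86858, 31776 and 68831 in PGCLCs, 6669.6 to 6768 in RS and 4214 to 4352 in SLCs. Those of the neural list were 3239.8 to 3630.0 in PGCs, 20586, 5134 and 15811 in PGCLCs, 1807 to 2679 in RS and 2847 to 3120.3 in SLCs. PGCLC replicate 2 was the nearest to PGCs in both lists, and with it alone limma called 0 neural genes and 7 epithelial genes lower. The median interaction was then -1.16 for the epithelial list and -0.75 for the neural list. With replicate 1 or 3 alone it was -3.47 and -3.01, and -2.50 and -1.97.

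Cldn4, a tight junction protein, was at 50.9 and 35.7 on 2 PGC arrays with the other at the floor, at 4056, 376 and 3037 on the PGCLC arrays, at 70.4 and 47.98 on 2 RS arrays with the other at the floor and at 47.7 and 39.7 on 2 SLC arrays with the other at the floor. Its interaction was -5.73 (SE 1.01, adjusted p = 0.000837). Krt8, a keratin of simple epithelia, was at 284, 278 and 293 on the PGC arrays, at 14786, 1743 and 11573 on the PGCLC arrays, at 512, 390.0 and 468 on the RS arrays and at 245, 284 and 242 on the SLC arrays, with an interaction of -5.38 (SE 0.84, adjusted p = 0.000357). Cells of simple epithelia and Sertoli cells both use Krt8. Zic1, a neural transcription factor, was at 2790.0, 207 and 2094 on the PGCLC arrays and at 41.8 on 1 SLC array with the others at the floor, with the floor on every array of PGCs and RS, with an interaction of -4.97 (SE 1.04, adjusted p = 0.00245). Fabp7, a fatty acid binding protein of neural progenitors, was at 42.2 and 77.2 on 2 PGC arrays with the other at the floor, at 3719, 322 and 2620.3 on the PGCLC arrays, at 67.1, 47.1 and 92.00 on the RS arrays and at 58.5, 66.9 and 61.8 on the SLC arrays, with an interaction of -5.07 (SE 1.03, adjusted p = 0.00213). Nefl, a neurofilament, was at 79.7 on 1 PGC array with the others at the floor, at 2066, 177 and 1306 on the PGCLC arrays, at 105, 45.8 and 39.6 on the RS arrays and at 41.1 on 1 SLC array with the others at the floor, with an interaction of -4.98 (SE 1.09, adjusted p = 0.00332). Mymx, a gene of muscle cell fusion, had an interaction of -4.54 (SE 1.04, adjusted p = 0.00434). In Cldn4, Krt8, Zic1, Fabp7 and Nefl every PGCLC array was above every array of the other groups, and replicate 2 was the nearest to them.

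**Figure D5:**
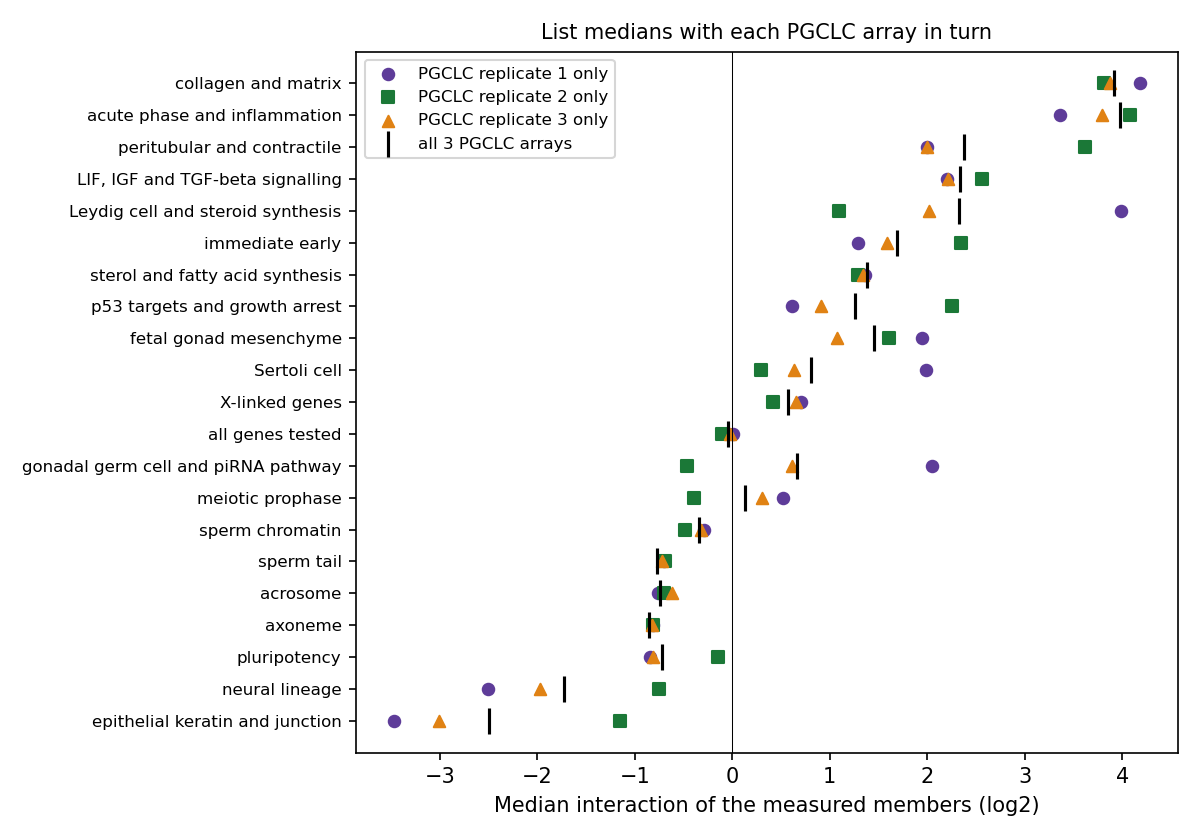
Median interaction on the log2 scale of the measured members of 20 gene lists and of all genes tested, with each PGCLC array as the only PGCLC array (coloured points) and with all 3 (black bars). The epithelial and neural lists span -3.47 to -1.16 and -2.50 to -0.75, and the gonadal germ cell and meiotic prophase lists change sign with PGCLC replicate 2.

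Some genes that rose in vivo were already high in PGCLCs and had no call in vitro. Mt1, a metal-binding protein, was at 243, 220.2 and 282 on the PGC arrays, at 14449.7, 1384 and 11147 on the PGCLC arrays, at 15914, 17435 and 16778 on the RS arrays and at 13842, 14011 and 13944 on the SLC arrays. Every PGCLC array was above the PGC arrays, replicate 2 by the least, and late signals were close. Its interaction was -4.88 (SE 0.91, adjusted p = 0.0012), but -0.37 on its other probe set. Klf9, a transcription factor induced by steroid hormones, was at 86.96, 68.3 and 72.5 on the PGC arrays, at 6181, 715 and 4728 on the PGCLC arrays, at 3619.5, 3724 and 3259.6 on the RS arrays and at 4681, 5293 and 5774 on the SLC arrays, with an interaction of -4.62 (SE 0.84, adjusted p = 0.00102). Ldha, the A subunit of lactate dehydrogenase, was at 1147, 741 and 817 on the PGC arrays, at 13842, 2530.2 and 10619 on the PGCLC arrays, at 15175, 16165 and 16126 on the RS arrays and at 12475, 10624 and 10589 on the SLC arrays, with an interaction of -3.52 (SE 0.67, adjusted p = 0.00134). In Klf9 and Ldha too PGCLC replicate 2 lay between the PGC arrays and the rest. Among 27 measured genes of glycolysis and its testis isoforms, 7 were higher and 7 lower, 25.9% each against 20.7% and 11.1% of all genes. Without PGCLC replicate 2, 11 were lower. The median of this list was -0.49, and -0.01 with PGCLC replicate 2 as the only PGCLC array.

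A further 19 genes fell in vitro and rose in vivo. The count was 66 without PGCLC replicate 2, 6 without PGCLC replicate 3, 11 without PGCLC replicate 1, 12 without RS replicate 1, and 5 with the floor at the table median. Acta1, skeletal muscle actin, was at 32.5 and 42.6 on 2 PGC arrays with the other at the floor, at 1520.5, 198 and 818 on the PGCLC arrays, at 114, 123 and 114 on the RS arrays and at 61.1 and 96.7 on 2 SLC arrays with the other at the floor, with an interaction of -5.21 (SE 0.87, adjusted p = 0.000603). Plac1, an X-linked placental gene, was at 106, 69.1 and 91.6 on the PGC arrays, at 2451, 314 and 1523 on the PGCLC arrays, at 372, 279 and 281 on the RS arrays and at 170.5, 181 and 153 on the SLC arrays, with an interaction of -4.47 (SE 0.80, adjusted p = 0.000915). Late signals of both were modest, and the PGCLC arrays stood above all others except PGCLC replicate 2 of Plac1, which overlapped RS. Mal, Pkp3 and Dlgap3 had interactions of -3.91, -3.91 and -4.15 and modest late signals as well.

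Germ cell and meiotic genes gave few calls, and the PGCLC arrays were far apart in them. Of 20 measured gonadal germ cell and piRNA genes, 1 was higher and 1 lower (5% each, against 20.7% and 11.1% of all genes). However, 11 were higher without PGCLC replicate 2, and 0 without PGC replicate 3 or SLC replicate 3. The list median was 0.67 with all arrays and -0.47 with PGCLC replicate 2 alone. Dazl, an RNA-binding protein of germ cells, was at 19103, 18902 and 22018 on the PGC arrays, at 2284, 17220.0 and 10506 on the PGCLC arrays, at 2286, 2552 and 2530.1 on the RS arrays and at 1317, 1313 and 1402 on the SLC arrays. Its interaction of 0.55 was not called, and late signals were lower in SLCs than in RS on all arrays. Mael, a piRNA pathway protein, was at 3532, 3392 and 3431 on the PGC arrays, at 276, 2547 and 1054 on the PGCLC arrays, at 21221, 21269 and 21054 on the RS arrays and at 15555, 14785 and 14328 on the SLC arrays. It rose in both settings, and its interaction of 1.42 had an interval of -0.31 to 3.15. Among 26 meiotic prophase genes 2 were lower (7.7%, against 11.1% of all genes), Rec8 and Mei1, and 1 with most single arrays left out. By limma 0 were higher, also at an unadjusted p under 0.05. Without PGCLC replicate 2, 5 were higher and 1 lower, and without RS replicate 2, 1 was higher. Sycp3, a protein of the chromosome axis, was at 2764, 3120.1 and 3103 on the PGC arrays, at 919, 2657 and 1358 on the PGCLC arrays, at 4836, 4183 and 4003 on the RS arrays and at 2473, 2559 and 2599 on the SLC arrays, with an interaction of 0.24. Rec8, a meiotic cohesin, was at 169, 173 and 172 on the PGC arrays, at 373, 186 and 236 on the PGCLC arrays, at 1799, 1938 and 1925 on the RS arrays and at 966, 1025 and 996 on the SLC arrays, with an interaction of -1.49 (SE 0.28, adjusted p = 0.00141). Of 24 late meiosis and spermatid regulators 4 were lower (16.7% against 11.1% of all genes), 2 without PGCLC replicate 3 or RS replicate 2. Cpeb1, a regulator of mRNA translation, was the 1 higher gene, with 2 higher without PGCLC replicate 2 and 0 when any other array but PGCLC replicate 1 was left out.

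DNA methylation genes went both ways, 3 of 11 higher (27.3%) and 4 lower (36.4%), against 20.7% and 11.1% of all genes. Without PGCLC replicate 3, 2 were lower. The list median was 0.30, and -0.12 after quantile normalization. With PGCLC replicate 2 as the only PGCLC array it was -0.002. Dnmt3l, a cofactor of DNA methylation in germ cells, was at 46.2 and 71.5 on 2 PGC arrays with the other at the floor, at 749.6, 71.1 and 466 on the PGCLC arrays, at 754, 589.8 and 677 on the RS arrays and at 508, 576 and 520.3 on the SLC arrays. Its interaction was -2.97 (SE 0.94, adjusted p = 0.0225), and the adjusted p was 0.0539 without PGC replicate 2 and 0.0544 without PGCLC replicate 3. With PGCLC replicate 2 as the only PGCLC array the Dnmt3l interaction was -0.94. Cell division genes mostly had changes alike within 2-fold, with intervals inside -1 to 1 more often than the 26% of all genes. Of 34 DNA replication genes 31 fell in vitro and 29 in vivo, 18 had intervals inside -1 to 1, and 1 was higher and 2 lower, with 0 to 3 higher and 1 to 3 lower when an array was left out. Of 29 mitosis genes 22 fell in vitro and 14 in vivo, 19 had intervals inside -1 to 1, and 1 was lower, Kif23, a kinesin of cell cleavage. Its interaction of -1.03 (SE 0.14, adjusted p = 0.000109) sat at the threshold and was -0.99 without PGCLC replicate 1 and without SLC replicate 1, and -0.9995 without PGCLC replicate 3. The median interaction of the mitosis list was -0.42. With no minimum fold 15 mitosis genes were lower, against 21.8% of all genes. Where p was under 0.05 before adjustment 20 were lower, and the share of all genes there was not counted. Without SLC replicate 3, 2 mitosis genes were lower, and 4 after quantile normalization.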

How the data were processed

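Total RNA from 12 samples, 3 in each of 4 groups, was hybridised to Affymetrix 3' expression arrays. The authors deposited a table of linear intensity values made with MAS5, per the submitters' processing notes, and the 2% trimmed mean of each array was 500.002 to 500.004. Detection calls were not used here.

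Of 45101 probe sets, 64 were controls, 932 had several gene symbols, 9160 had none and 34945 had 1. Intensities were floored at 30.7 and converted to log2. Probe sets above the table median of 91.8 on at least 3 arrays were kept (24965), and the brightest probe set stood for each of 14201 genes, 6299 of which had several. limma 3.58.1 in R 4.3.3 fitted 4 group means with a trended empirical Bayes prior and Benjamini-Hochberg adjustment over all genes, and calls needed adjusted p under 0.05 and 2-fold. All 12 arrays entered each fit. In simulated data for the interaction, 200 of 14201 genes were changed in each of 5 draws. Of changes of 1.5 on the log2 scale 62.1% were recovered, and of changes of 2, 78.1%. On average 124.2 and 156.2 changed genes were recovered, beside 26 and 29.8 false calls. In these draws false calls were thus a larger share of calls than the 0.05 set for the adjusted p. Only these 200 genes were changed, in the SLC arrays alone and by 1 size per draw. The real data had far more calls, so that share does not carry over to them.

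The 33 gene lists were chosen with earlier results of these data known. Named genes were the 10 largest interactions in each direction that kept their sign with the least favourable arrays, the 5 largest in each class of opposite changes, the 2 largest of each list, 12 landmark genes, and the 5 largest changes alike in each direction. The array count limits precision.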

Additional observations from a re-analysis of the deposited data

Results flagged for a closer look

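The interaction tests whether the stage change differs between settings, and limma called 2935 genes higher and 1573 lower in vitro than in vivo. Opposite directions were called for 194 genes that rose in vitro and fell in vivo and for 19 that fell in vitro and rose in vivo. Among X-linked genes, 188 of 473 had a higher interaction, with SLC arrays between RS and early arrays in the X-linked median. Groups of 3 arrays were not tested for single outlying samples.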

How the results depend on the processing

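Results were recomputed under 30 alternatives, of which 27 were planned and 3, each keeping 1 PGCLC array, were chosen after seeing the data. With no minimum fold the interaction was lower in 3099 genes. At a 4-fold threshold it was higher in 1464 and lower in 319, and the stage change rose in 2598 and fell in 1401 genes in vitro and fell in 3222 in vivo. With 1 array left out, higher interactions numbered 2679 (without SLC replicate 2) to 3152 (without PGCLC replicate 2) and lower ones 1330 (without PGCLC replicate 3) to 1984 (without PGCLC replicate 2). Genes that rose numbered 3943 to 4315 in vitro and 4219 to 4524 in vivo, and genes that fell 3607 to 3847 and 5158 to 5383. Intervals inside -1 to 1 numbered 3319 to 4060 with 1 array left out. They numbered 2826 with the middle probe set of each gene, 5351 with a weight for each array and 5462 with the floor at the table median. With PGCLC array 1, 2 or 3 alone, 3242, 2876 and 2896 genes were higher and 2051, 1064 and 1656 lower. Quantile normalization gave 2351 higher and 1970 lower, and median centring 3056 and 1846. Replicate numbers did not pair the samples: of 18 correlations between the deviations of same-numbered arrays, 1 was over 0.1 and the median was 0.006. With the replicate number as a block, 2929 genes were higher and 1580 lower, of which 2896 and 1520 were called without it.

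Of 2664 planned values for named genes, 2554 were counted as unchanged, 87 fell short of the threshold and 23 newly passed it. Among genes called in the main fit, 0 reversed. For genes with no call there, a change of sign was counted as unchanged. Genes that failed the filter under an alternative gave no value. Signals near the floor limit the size of interactions. Early and late differences cannot be separated by the interaction alone, and array signals near background or near the array maximum carry little information on fold size.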

Other observations

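Of 36 measured cytosolic ribosomal protein genes, 25 had intervals inside -1 to 1. By limma 6 had a higher interaction (16.7%, against 20.7% of all genes) and 0 a lower one. Where p was not adjusted and under 0.05, 20 were higher and 6 lower. The list median was 0.34. After quantile normalization 12 were higher and the median was 0.77. Rpl14, a subunit of the large ribosome, was at 1922, 2079.6 and 2078 on the PGC arrays, at 969, 1607 and 1232 on the PGCLC arrays and at 106, 208 and 207 on the SLC arrays, with the floor on every array of RS, with an interaction of 3.14 (SE 0.36, adjusted p = 3.69e-05). Every SLC array was above every RS array.

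Of 25 measured spermatogonial genes 5 were higher (9 without PGCLC replicate 2) and 4 lower (2 without PGCLC replicate 3 or RS replicate 3), shares near the 20.7% and 11.1% of all genes. Of 18 measured mesoderm and Hox genes, 3 were higher and 4 lower, or 16.7% and 22.2%, against the same background. Hoxd9, a posterior Hox gene, was at 439, 351 and 373 on the PGC arrays, at 82.5, 1087 and 458 on the PGCLC arrays, at 67.5, 44.00 and 53.5 on the RS arrays and at 779, 708 and 749.6 on the SLC arrays, with an interaction of 3.94 (SE 0.95, adjusted p = 0.00564). Of 11 endothelial genes 2 were higher (18.2%) and 4 lower (36.4%), against 20.7% and 11.1% of all genes. Without PGCLC replicate 1, 2 were lower. The summed signals of the list were 2018 to 2234 in RS and 1677 to 1884 in SLCs. Of 5 erythroid genes 0 were higher and 1 lower by limma, or 0 and 2 where p was not adjusted and under 0.05, with summed signals of 4109.7, 16439.7 and 10452 in PGCLCs. The 1 lower call was lost without PGC replicate 1 or 2, PGCLC replicate 3, RS replicate 3 or any SLC replicate, and without PGCLC replicate 2 there were 2 lower and 1 higher.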
